A study of Homo sapiens with 18 samples.

Results

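The genes described here encode the subunits of oxidative phosphorylation, and they were followed in the EGFR-mutant human lung adenocarcinoma lines H1650 and PC9. A row of the deposited count tables was taken as a member when its Ensembl identifier belonged to a protein-coding gene whose symbol starts with MT-ND, MT-CO, MT-ATP, MT-CYB, NDUFA, NDUFB, NDUFC, NDUFS, NDUFV, UQCR, ATP5 or one of the cytochrome c oxidase prefixes COX4, COX5, COX6, COX7 and COX8, or is one of the SDH genes A to D, and the NDUFAF assembly factors were left out. This gave 103 members, 13 of them mitochondrially encoded and 90 nuclear, among 60603 rows in the H1650 table and 60649 in the PC9 table. After the filter on low counts, 96 members were tested in H1650 among 17937 genes, 83 of them nuclear, and 93 in PC9 among 16169 genes, 80 of them nuclear. Poly-A selected RNA of brain-metastatic derivatives of both lines was sequenced in 3 groups of 3 libraries per line. All 3 groups of a line are of such a derivative: the BrM control is labelled BrM and control, the Tr-BrM control is labelled Tr-BrM and control, and the Tr-BrM S100A9-inh group is labelled Tr-BrM with S100A9-inh as its treatment. The sources used here do not give what Tr stands for, how S100A9 was inhibited or how long, or whether a derivative is 1 clone or a pool.

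Complexes I to IV of the inner mitochondrial membrane pass electrons from NADH and succinate by way of coenzyme Q and cytochrome c to oxygen. Complexes I, III and IV pump protons as they do so, and complex V, the ATP synthase, uses the returning protons to make ATP. The mitochondrial genome encodes core membrane subunits of complexes I, III, IV and V and is read as long transcripts that are cut at the tRNAs between the genes. The remaining subunits, all of complex II included, are encoded in the nucleus and imported, so that each mixed complex is built from the products of both genomes.

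The first pair of sequences shows where neighbouring mitochondrial reading frames share bases, since reads from such a stretch can belong to either gene and both genes of a pair are carried by 1 mRNA. They are from GRCh38 and GENCODE 29, on the forward strand, with the shared bases in capitals. The MT-ATP8 and MT-ATP6 frames share 46 bases at chrM:8527-8572 (shown chrM:8512-8587), and the MT-ND4L and MT-ND4 frames share 7 bases at chrM:10760-10766 (shown chrM:10745-10781).
MT-ATP8/MT-ATP6: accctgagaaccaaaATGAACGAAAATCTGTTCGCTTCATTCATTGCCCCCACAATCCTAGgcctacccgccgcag
MT-ND4L/MT-ND4: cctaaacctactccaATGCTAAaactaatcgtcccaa

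Promoters are shown for 4 nuclear members whose changes were among the largest or turned opposite ways in the lines. They run from 250 bases before to 50 bases after the annotated start, 300 bases in all, and come from RefSeq (GRCh38.p14), in which 71 of the 90 nuclear members were matched. Capitals mark a match to the cores of nuclear respiratory factor 1, NRF1 (CGCATGCG), or of ETS factors such as GABPA (CCGGAAGT), and YY1 (AAGATGGCG) was searched as well, on both strands, with no overlap between the motifs' letters required or excluded. The windows are chr18:46104178-46104477 on the reverse strand for ATP5F1A, chr10:7787927-7788226 on the forward strand for ATP5F1C, chr16:1959288-1959587 on the forward strand for NDUFB10 and chr5:132866392-132866691 on the forward strand for UQCRQ.
ATP5F1A: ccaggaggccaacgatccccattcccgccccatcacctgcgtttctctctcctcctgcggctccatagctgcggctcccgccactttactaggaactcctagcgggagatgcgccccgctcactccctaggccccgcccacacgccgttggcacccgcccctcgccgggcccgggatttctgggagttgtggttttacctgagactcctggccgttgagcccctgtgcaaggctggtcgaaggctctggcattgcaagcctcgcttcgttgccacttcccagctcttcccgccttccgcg
ATP5F1C: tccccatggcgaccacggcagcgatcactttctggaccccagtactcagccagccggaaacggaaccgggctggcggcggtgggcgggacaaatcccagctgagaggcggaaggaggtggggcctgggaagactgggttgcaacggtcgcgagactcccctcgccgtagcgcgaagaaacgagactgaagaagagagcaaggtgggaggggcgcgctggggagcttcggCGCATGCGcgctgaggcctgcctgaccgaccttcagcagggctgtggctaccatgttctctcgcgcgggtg
NDUFB10: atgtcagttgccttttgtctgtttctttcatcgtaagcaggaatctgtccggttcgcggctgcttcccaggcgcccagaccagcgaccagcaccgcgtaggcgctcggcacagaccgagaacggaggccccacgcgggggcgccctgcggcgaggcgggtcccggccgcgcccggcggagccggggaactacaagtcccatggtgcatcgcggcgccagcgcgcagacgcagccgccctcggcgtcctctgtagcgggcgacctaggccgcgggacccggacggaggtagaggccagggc
UQCRQ: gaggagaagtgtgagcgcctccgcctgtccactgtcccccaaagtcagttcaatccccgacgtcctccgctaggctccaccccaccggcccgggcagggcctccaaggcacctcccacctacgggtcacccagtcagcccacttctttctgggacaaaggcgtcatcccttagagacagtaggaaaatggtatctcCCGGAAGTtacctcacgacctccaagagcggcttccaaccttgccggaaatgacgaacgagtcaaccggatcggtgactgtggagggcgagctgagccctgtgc
ATP5F1C held 1 NRF1 core and UQCRQ 1 ETS core, while these letters were not in the windows of ATP5F1A and NDUFB10. Over the 71 matched promoters, 10 (14.1%) held the NRF1 core against 2.85% of 15323 promoters of coding genes, and 10 (14.1%) held the ETS core against 6.3%. The YY1 core was in 8 (11.3%) against 2.8%, and 25 (35.2%) held at least 1 of these motifs against 11.2%. A match of letters is a description of the sequence and not a measured binding site. Nuclear members not in the promoter table included NDUFA4, NDUFA4L2, NDUFB5, NDUFB9, NDUFC2, NDUFS5, SDHC, UQCRB, UQCRHL, COX4I2, COX6C, COX7A1, ATP5F1B, ATP5F1D, ATP5MC3, ATP5MF, ATP5MF-PTCD1 and ATP5MGL.

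Levels are given as CPM on library sizes scaled by trimmed mean of M-values (TMM), and changes as log2 fold changes ± SE between 3 and 3 libraries. A gene is said to have risen or fallen where its adjusted p, from edgeR's quasi-likelihood test with Benjamini-Hochberg adjustment over the tested genes of its line, was under 0.05. Total counts per library ran from 17403497 to 27112362 in H1650 and from 18174516 to 21748732 in PC9. Libraries of a group differed by more than sampling noise in every pair, with a chi-square per degree of freedom of 1.54 to 6.51, and PC9 S100A9-inh replicate 1 stood apart at 6.51 and 5.85 against its 2 partners. The labels do not say whether a group's libraries are separate cultures, and the p-values therefore measure library-to-library spread alone, possibly technical in origin. S100A9 itself ranged over 199 to 217, 292 to 336 and 88.2 to 105 CPM in the BrM, Tr-BrM control and S100A9-inh libraries of H1650, and over 119 to 127, 738 to 759 and 30.4 to 35.5 CPM in PC9. Epithelial markers (EPCAM, CDH1 and keratins 7, 8, 18 and 19) summed to 10800 to 10900, 9040 to 9370 and 8810 to 9150 CPM in these groups of H1650 and to 26100 to 26500, 20000 to 20500 and 21200 to 23400 CPM in PC9. In H1650 the summed level of 8 fibroblast and endothelial markers was 22.7 to 23.6 CPM in the BrM controls, 158 to 176 in the Tr-BrM controls and 178 to 187 under S100A9-inh, and 7 of 8 rose in the Tr-BrM controls, with COL3A1 the most abundant at 129 CPM. There 3 of 6 tested astrocyte and neuron markers rose and 2 fell, 4 of 6 tested leukocyte markers rose and 1 fell, and 1 of 6 epithelial markers rose and 4 fell. The 7 astrocyte and neuron markers summed to 47.6 to 57.7, 73.4 to 94.5 and 47.7 to 64.7 CPM there, with GFAP at 63.2 CPM in the Tr-BrM controls, and the 7 leukocyte markers to 88.5 to 109 over the 9 libraries, mostly CSF1R. In PC9 the corresponding sums were 49.4 to 53.5, 53.1 to 56.1 and 40.8 to 46.1 CPM for fibroblast and endothelial markers, with LUM at 0 in every library, 32.7 to 33.2, 16.8 to 17.7 and 22.8 to 27.4 CPM for leukocyte markers, and 1.65 to 2.58 CPM over the 9 libraries for astrocyte and neuron markers. In the Tr-BrM controls of PC9 3 of 5 tested fibroblast and endothelial markers rose and 2 fell, 3 of 4 leukocyte markers rose and 1 fell, 1 of 3 astrocyte and neuron markers rose and 0 fell, and 0 of 6 epithelial markers rose and 5 fell. The part of these differences in the results that follow was not tested, and in bulk RNA fewer cells of a type and less RNA per cell cannot be told apart.

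The mitochondrial mRNAs as a group took a larger share of counts in the Tr-BrM controls than in the BrM controls of both lines, and under S100A9-inh their share was lower in PC9 than in either control group. In H1650 the 13 mRNAs held 2.806, 2.744 and 2.773% of counts in the BrM controls, 3.18, 3.215 and 3.211% in the Tr-BrM controls and 3.162, 3.044 and 3.132% under S100A9-inh. In PC9 they held 6.035, 5.944 and 5.975%, then 6.603, 6.57 and 6.521%, then 5.347, 5.531 and 5.425%. No 2 groups of a line overlapped, and each difference had an exact permutation p of 0.1 (two-sided), the smallest that 3 against 3 libraries allow. In PC9 the difference between S100A9-inh and Tr-BrM control was -1.13 percentage points, and in H1650 it was -0.0893 points. The denominator mattered little: as a share of counts in protein-coding genes the same differences were -1.15 and -0.0893 points.

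The 90 nuclear members together held a share that overlapped between all groups of H1650 and was highest under S100A9-inh in PC9. The H1650 shares were 0.997% ± 0.00718, 1.02% ± 0.0402 and 1.0% ± 0.0132 (SD, n = 3) in the BrM, Tr-BrM control and S100A9-inh groups (exact permutation p of 0.5 to 0.7). In PC9 it was 0.772% ± 0.01, 0.755% ± 0.00687 and 0.857% ± 0.0199, and all 3 S100A9-inh libraries, at 0.8753, 0.8356 and 0.8587%, lay above all 6 others. The shares of both genomes in PC9 thus differed in opposite directions between S100A9-inh and Tr-BrM control, and the ratio of mitochondrial to nuclear member counts, which does not depend on library scaling, was 0.73 of its Tr-BrM level (-0.454 on the log2 scale, exact permutation p = 0.1, no overlap). Without PC9 S100A9-inh replicate 1 that difference was -0.427. In H1650 the ratio differed by -0.0148 between the same groups, which overlapped (exact permutation p = 0.7). Tr-BrM control against BrM control gave a higher ratio in both lines, 1.13-fold in H1650 and 1.12-fold in PC9.

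**Figure D1:**
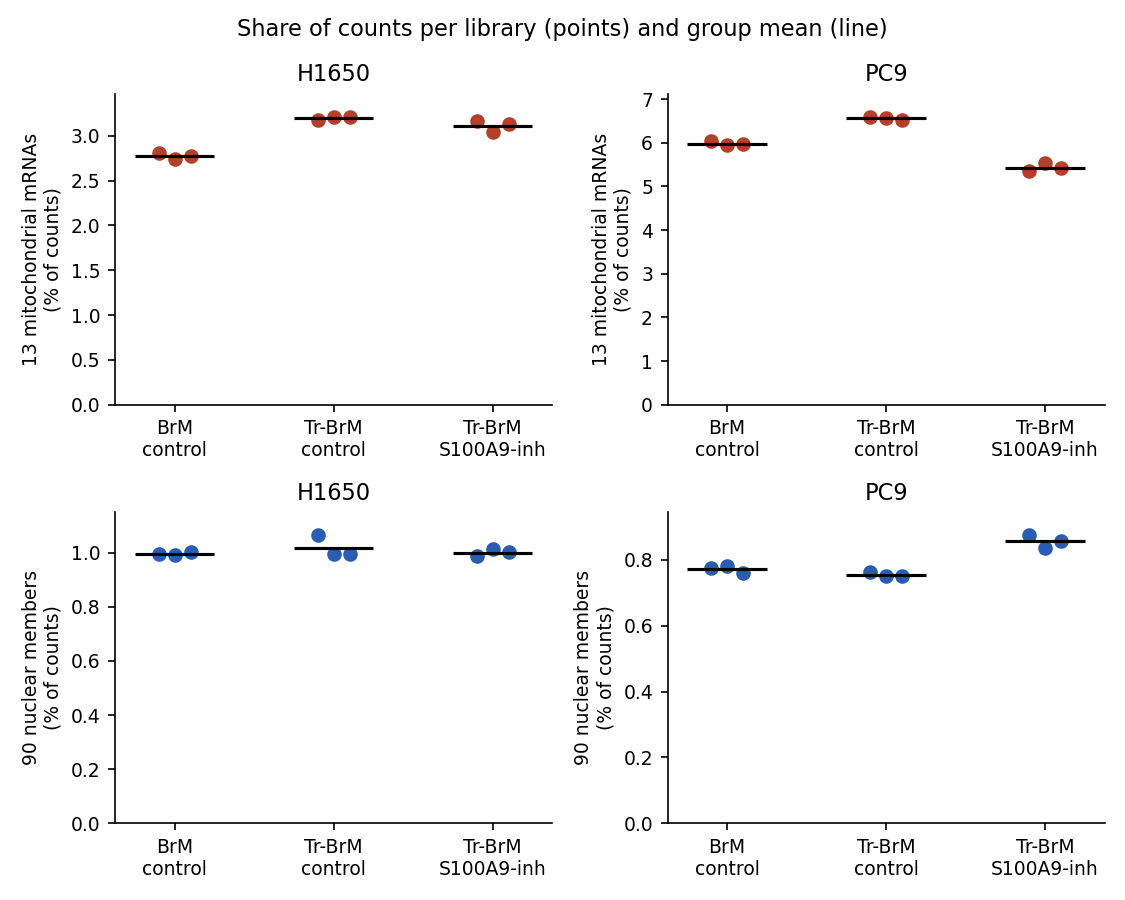
Percent of all counts from the 13 mitochondrial mRNAs (upper panels) and from the 90 nuclear members (lower panels) in each library (points) with the group mean (line), for H1650 and PC9. In PC9 the S100A9-inh libraries lie at 5.347 to 5.531% for mitochondrial mRNAs, below the other groups, and at 0.8356 to 0.8753% for nuclear members, above them.

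Among single mitochondrial mRNAs, all 13 of which passed the filter in both lines, the rise in the Tr-BrM controls was uneven. Against the BrM controls 7 rose and 4 fell in H1650, where 32.2% of all tested genes rose and 31.7% fell, and 7 rose and 3 fell in PC9, where 29.6% rose and 30.3% fell. With library size alone 8 rose and 1 fell in H1650. The median log2 fold change of the 13 was 0.207 in H1650 and 0.147 in PC9. Under S100A9-inh all 13 fell against the Tr-BrM controls of PC9, with a median of -0.322, where 26.1% of all tested genes fell and 26.3% rose. Over the alternative settings 11 to 13 of them passed as lower, 12 without S100A9-inh replicate 1, except when a log2 change of at least 0.5 was also required, which left 4. In this comparison 1581 of the 16169 tested genes of PC9 fell by at least that much. In H1650 the same comparison gave 3 that rose and 4 that fell, with a median of 0.0427, where 15.4% of all tested genes rose and 13.8% fell. S100A9-inh against BrM control gave 8 that rose and 3 that fell in H1650 (32.5% and 31.2% of all genes) and 11 that fell and 0 that rose in PC9 (23.6% and 22.7%). In PC9 the call of MT-CO1 was lost in 11 of 17 alternative fits, that of MT-CO2 in 4 and that of MT-ND4L in 1. In H1650 the call of MT-ND4 was lost in 6, that of MT-ATP6 in 4, that of MT-CO1 in 2 and those of MT-ND4L and MT-ND6 in 1 each. The 3 comparisons of a line share libraries and are not independent of each other.

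Of the complex I subunits, MT-ND1, the membrane subunit next to the quinone site, went opposite ways in the lines. Its H1650 libraries were at 1710, 1707 and 1696 CPM (BrM control), 2293, 2470 and 2281 CPM (Tr-BrM control) and 2746, 2516 and 2694 CPM (S100A9-inh), and it rose by 0.46 ± 0.0326 and then by 0.18 ± 0.0324 on the log2 scale. In PC9 it was at 4649, 4524 and 4524, then 3583, 3527 and 3482, then 3194, 3505 and 3307 CPM, and it fell by 0.37 ± 0.0314 and then by 0.08 ± 0.0314. The second of these PC9 differences overlapped between groups and was lost in 6 of 17 alternative fits. The order of groups was thus ascending in H1650 and descending in PC9. MT-ND2, a proton-pumping subunit, rose in both lines' Tr-BrM controls, by 0.34 ± 0.0311 in H1650 and 0.26 ± 0.0386 in PC9. Under S100A9-inh its PC9 level went from 5200, 5282 and 5201 CPM to 3047, 3626 and 3466 CPM, a fall of 0.63 ± 0.0388, while in H1650 it did not pass (0.06 ± 0.031). MT-ND3 rose by 0.58 ± 0.0323 in the Tr-BrM controls of H1650, from 660.8, 640.1 and 653.8 to 974.9, 1007 and 930.7 CPM, and did not pass in PC9 (0.08 ± 0.0532).

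MT-ND4 and MT-ND5, the distal pumping subunits, differed less: in the Tr-BrM controls of H1650 they fell by 0.10 ± 0.0262 and 0.09 ± 0.0299, and under S100A9-inh they fell in PC9 by 0.15 ± 0.0286 and 0.27 ± 0.0287. Both H1650 calls were lost with library size alone (-0.0197, adjusted p = 0.519, and -0.00328, adjusted p = 0.933, in edgeR), and that of MT-ND5 in 3 of the 17 fits in all, one of them without Tr-BrM control replicate 1 (adjusted p = 0.0674). MT-ND4L, which shares its mRNA with MT-ND4, was at 370.2, 374 and 369.6 CPM in the BrM controls of H1650, at 301.7, 305.9 and 306.8 in the Tr-BrM controls and at 542.3, 342.4 and 494.8 under S100A9-inh. Replicate 2 of that last group lay far below its partners for MT-ND4L and above them for MT-ND6, at 621.2 against 463.5 and 515.5 CPM, and MT-ATP6, at 2589 against 2150 and 2257 CPM. Each of these 3 genes was called between S100A9-inh and Tr-BrM control of H1650 (0.59 ± 0.0822, -0.26 ± 0.0558 and -0.15 ± 0.0422), and the count of mitochondrial mRNAs that rose there was 5 without that replicate and 3 with it. MT-ND6 is encoded on the other strand from the remaining 12 mRNAs, and whether the counting kept the strands apart is not given. In PC9 it fell by 0.37 ± 0.0552 in the Tr-BrM controls, from 462.6, 467.6 and 455.8 to 344.8, 365.9 and 365.3 CPM, and its share of mitochondrial mRNA counts went from 0.763% ± 0.0116 to 0.543% ± 0.0234 (SD, n = 3). Its fall of 0.16 ± 0.0557 under S100A9-inh was lost in 5 alternative fits, one of them the fit without S100A9-inh replicate 1 of PC9 (adjusted p = 0.142).

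MT-CYB, the cytochrome b of complex III, did not pass between any groups of H1650, where its 9 libraries ran from 1927 to 2071 CPM. In PC9 it rose by 0.17 ± 0.0302 in the Tr-BrM controls and fell by 0.32 ± 0.0303 under S100A9-inh. The catalytic core of complex IV, MT-CO1, MT-CO2 and MT-CO3, rose as a set in the Tr-BrM controls of PC9 (by 0.15 ± 0.0246, 0.26 ± 0.0287 and 0.19 ± 0.0292) and fell as a set under S100A9-inh (by 0.21 ± 0.0246, 0.35 ± 0.0287 and 0.50 ± 0.0293). MT-CO3 showed the widest gap, with Tr-BrM controls at 6915, 6966 and 6947 CPM against S100A9-inh libraries at 4677, 5040 and 4973 CPM. In H1650 MT-CO1 and MT-CO3 rose in the Tr-BrM controls, each by 0.21, and MT-CO2 fell by 0.13 ± 0.0281, a call lost with library size alone (-0.0428, adjusted p = 0.172 in edgeR). By counts MT-CO1 held the largest share of the 13, 30.1% ± 0.226 of their counts in the BrM controls of PC9 and 19.7% ± 0.0275 in those of H1650. Per kilobase it led in PC9, at 11800 ± 68.0 CPM, while in the BrM controls of H1650 MT-CO2 stood at 5320 ± 141, MT-CO3 at 4200 ± 43.7 and MT-CO1 at 3660 ± 39.5 CPM (SD, n = 3).

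The mitochondrially encoded ATP synthase subunits rose and then fell in PC9. MT-ATP8 (chrM:8366-8572) was at 32.71, 31.78 and 33.11 CPM in the BrM controls, at 62.6, 56.24 and 61.36 in the Tr-BrM controls and at 34.89, 32.51 and 36.64 under S100A9-inh. MT-ATP6 (chrM:8527-9207), the proton channel subunit read from the same mRNA, was at 3230, 3257 and 3181, then 4845, 4543 and 4508, then 3296, 3150 and 3081 CPM. Both were high in the Tr-BrM controls alone: MT-ATP8 rose by 0.88 ± 0.0614 and fell by 0.79 ± 0.0612, and MT-ATP6 rose by 0.52 ± 0.0319 and fell by 0.54 ± 0.0319. Between S100A9-inh and BrM control neither passed (0.09 ± 0.0644 and -0.02 ± 0.0318). Per kilobase MT-ATP8 was counted at 157 ± 3.3 CPM and MT-ATP6 at 4730 ± 56.6 CPM in the PC9 BrM controls (SD, n = 3), and the 46 shared bases printed above are part of both rows. In H1650 both rose modestly in the Tr-BrM controls, by 0.22 ± 0.0797 and 0.26 ± 0.0423, and the MT-ATP8 groups overlapped there.

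**Figure D2:**
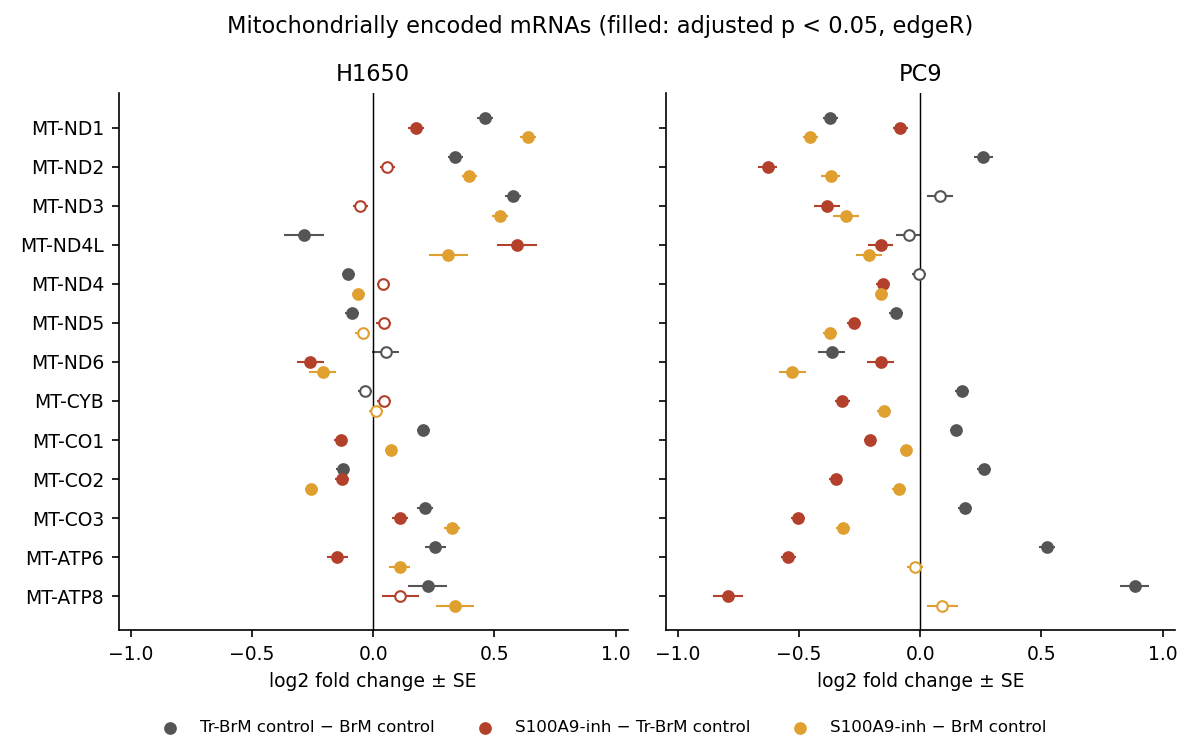
Log2 fold change ± SE of each mitochondrially encoded mRNA in the 3 comparisons of each line; filled points passed an adjusted p of 0.05 in edgeR. In PC9 every red point (S100A9-inh against Tr-BrM control) lies below 0, from -0.08 for MT-ND1 to -0.79 for MT-ATP8, and in H1650 the red points lie on both sides.

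Nuclear members leaned lower in the Tr-BrM controls of H1650 and were split in PC9. In H1650, 17 of the 83 tested rose and 38 fell, with a median of -0.0982, and in PC9 28 of the 80 tested rose and 21 fell, with a median of 0.0657. Set against the shares of all genes given above, more of the H1650 members fell and fewer rose. Most differences were small: a log2 change of at least 0.5 was reached by 3 that rose and 5 that fell in H1650 and by 5 and 2 in PC9. Of all tested genes 3578 rose and 2910 fell by that much among 17937 in H1650, and 2308 and 2635 among 16169 in PC9. In H1650 the split of nuclear members depended on scaling and on 1 library, since library size alone gave 24 that rose and 21 that fell, and leaving out Tr-BrM control replicate 2 left 23 that fell. Complexes were assigned by gene symbol throughout, so that NDUFA4 and NDUFA4L2 count in complex I. By complex, rises and falls in H1650 were 8 and 15 of 39 in complex I, 0 and 3 of 4 in complex II, 1 and 5 of 9 in complex III, 3 and 8 of 13 in complex IV, and 5 and 7 of 18 in complex V. In PC9 they were 12 and 8 of 37, 2 and 0 of 4, 3 and 2 of 9, 5 and 4 of 12, and 6 and 7 of 18 in the same order.

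Under S100A9-inh nuclear members moved up more often than down in PC9. Against the Tr-BrM controls 31 of 80 rose and 7 fell, with a median of 0.105, where 26.3% of all tested genes rose and 26.1% fell, and without replicate 1, the library that stood apart, 27 rose and 9 fell. Complex IV had 8 of 12 that rose and 0 that fell, complex I 12 and 3 of 37, complex II 1 and 1 of 4, complex III 4 and 1 of 9, and complex V 6 and 2 of 18. Among the rises in complex IV, COX5A and COX6A1 did not pass without replicate 1 (adjusted p = 0.0994 and 0.16 in edgeR). Against the BrM controls 35 rose and 6 fell, with a median of 0.124, where 22.7% of all tested genes rose and 23.6% fell. In H1650 11 of 83 rose and 8 fell against the Tr-BrM controls, with a median of -0.035, shares near the 15.4% and 13.8% of all genes. With library size alone 9 rose and 21 fell. The counts also moved with single libraries: 6 and 7 rose without Tr-BrM control replicates 2 and 3, and 5 and 15 fell without S100A9-inh replicates 1 and 2. Against the BrM controls of H1650 14 rose and 37 fell, with a median of -0.105, and with library size alone 24 rose and 28 fell.

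**Figure D3:**
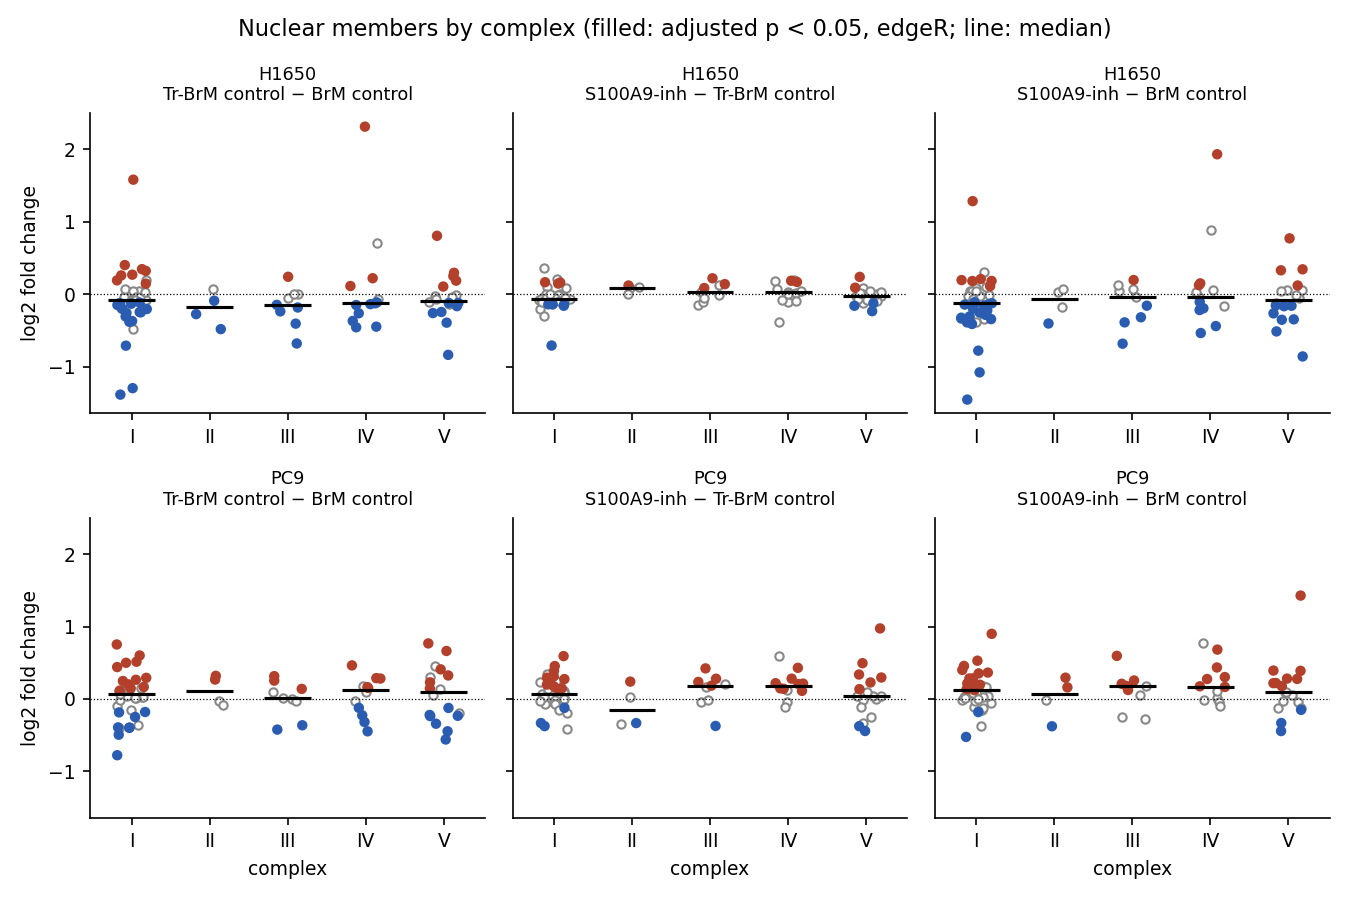
Log2 fold change of each tested nuclear member by complex (I to V) in the 3 comparisons of H1650 (upper row) and PC9 (lower row); filled points passed an adjusted p of 0.05 in edgeR, red higher and blue lower, and the bar is the median. Complexes are assigned by gene symbol, with NDUFA4 and NDUFA4L2 in complex I. In PC9 under S100A9-inh against Tr-BrM control, complex IV has 8 filled points above 0 and 0 below. COX5A and COX6A1 among them did not pass without S100A9-inh replicate 1.

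In complex I, the largest difference of any member at 5 CPM or more that fell in H1650 was that of NDUFB10 (GRCh38 chromosome 16, 1959508 to 1961975, forward strand), an accessory subunit of the membrane arm. It was at 117.1, 117.1 and 120.8 CPM in the BrM controls, 48.36, 45.87 and 41.83 in the Tr-BrM controls and 43.5, 42.61 and 43.52 under S100A9-inh. It fell by 1.38 ± 0.0449 (adjusted p = 5.56e-21) in the Tr-BrM controls, and the 2 Tr-BrM groups overlapped. In PC9 its 9 libraries ran from 94.01 to 113.4 CPM, and no comparison passed. NDUFA1 fell in the Tr-BrM controls of H1650 by 0.37 ± 0.0423 and rose in those of PC9 by 0.51 ± 0.047, from 101.3, 98.01 and 89.31 to 138.5, 135.5 and 138.1 CPM. NDUFA12 did the reverse, with a rise of 0.32 ± 0.044 in H1650 and a fall of 0.40 ± 0.0675 in PC9. Under S100A9-inh NDUFA12 rose in PC9 by 0.59 ± 0.0669, from 27.08, 27.97 and 24.9 to 41.71, 38.68 and 40.18 CPM.

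NDUFS1, the large iron-sulfur subunit of the peripheral arm, rose by 0.26 ± 0.0356 in the Tr-BrM controls of H1650. In PC9 it was at 134.6, 137.3 and 135.4 CPM in the BrM controls, 97.44, 95.98 and 95.93 in the Tr-BrM controls and 117.5, 121.9 and 119.9 under S100A9-inh, so that it fell by 0.49 ± 0.0418 and rose by 0.31 ± 0.0421. NDUFS4, a regulatory subunit of the same arm, did not pass between the PC9 controls (0.07 ± 0.0599) and rose under S100A9-inh by 0.39 ± 0.0584. NDUFB1 rose by 0.50 ± 0.0831 and then fell by 0.37 ± 0.0825 in PC9. NDUFB5 rose by 0.60 ± 0.164 in the Tr-BrM controls of PC9 at a level of 4.06 ± 0.104 to 6.15 ± 0.993 CPM (SD, n = 3) and fell by 0.16 ± 0.0379 under S100A9-inh in H1650. NDUFA11, an accessory subunit of the membrane arm, fell by 0.78 ± 0.169 in the Tr-BrM controls of PC9 from 6.63 ± 0.669 to 3.88 ± 0.89 CPM. NDUFA3 rose in both lines' Tr-BrM controls, by 0.35 ± 0.0411 in H1650 and 0.20 ± 0.0627 in PC9.

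In complex II, SDHC, a membrane anchor, fell by 0.48 ± 0.0385 in the Tr-BrM controls of H1650, from 170.4, 163.5 and 162.2 to 125.1, 113.7 and 117.9 CPM. In PC9 it rose by 0.27 ± 0.0476, from 65.22, 63.27 and 62.65 to 76.97, 76.14 and 77.06 CPM. The groups did not overlap in either line, and the levels under S100A9-inh overlapped with the Tr-BrM controls in both. SDHB, the iron-sulfur subunit, rose under S100A9-inh against the Tr-BrM controls of both lines, by 0.13 ± 0.0363 in H1650 and 0.24 ± 0.054 in PC9. SDHD, the other anchor, rose by 0.32 ± 0.107 in the Tr-BrM controls of PC9 and fell by 0.33 ± 0.108 under S100A9-inh, a fall lost without S100A9-inh replicate 1 (adjusted p = 0.111). SDHA, the flavoprotein, was counted under 10 CPM in both lines, and its fall of 0.38 in PC9 between S100A9-inh and BrM control was lost in 12 of the 17 alternative fits.

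In complex III, UQCRQ (GRCh38 chromosome 5, 132866560 to 132868031, forward strand), a small subunit beside cytochrome b, fell by 0.68 ± 0.0579 in the Tr-BrM controls of H1650, from 80.89, 81.46 and 82.57 to 57.36, 47.48 and 48.97 CPM, and the S100A9-inh libraries stayed within 47.85 to 56.11 CPM. In PC9 it was at 27.07, 26.48 and 21.22 CPM, then 33.64, 30.02 and 29.3, then 38.18, 34.9 and 39.86, a rise of 0.32 ± 0.0819 followed by one of 0.28 ± 0.0787. UQCRC1, a core subunit, had the mirrored pattern between the controls, with a rise of 0.24 ± 0.0346 in H1650 and a fall of 0.36 ± 0.0422 in PC9. Under S100A9-inh it rose in PC9 as UQCRQ did, by 0.42 ± 0.0422. UQCRC2, the other core subunit, fell between the controls by 0.40 ± 0.0298 in H1650 and did not pass there in PC9 (-0.00 ± 0.0379). Against the Tr-BrM controls it rose under S100A9-inh in both lines, by 0.09 in H1650 and 0.18 in PC9. UQCRFS1, the Rieske iron-sulfur protein, rose under S100A9-inh in H1650 by 0.22 ± 0.0445. UQCR10 fell by 0.42 ± 0.158 in the Tr-BrM controls of PC9 and UQCR11 by 0.37 ± 0.135 under S100A9-inh there, both at under 10 CPM. The first call was lost in 5 and the second in 3 of the 17 alternative fits.

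In complex IV, COX7C rose in both lines' Tr-BrM controls. It went from 273.4, 283.5 and 281.7 to 352.5, 315.4 and 311.5 CPM in H1650, a rise of 0.22 ± 0.0392. In PC9 it went from 172.3, 172 and 173.8 to 240.6, 239.1 and 234.7 and then to 282, 273.2 and 275.8 CPM, rises of 0.46 ± 0.0368 and 0.22 ± 0.0361. The 3 groups of PC9 thus formed separate steps. COX4I1, the housekeeping form of subunit 4, fell by 0.45 ± 0.0342 in the Tr-BrM controls of H1650, from 283.4, 293.6 and 280.7 to 217.7, 209.1 and 199.6 CPM. In PC9 it did not pass between the controls (-0.03 ± 0.0458) and rose under S100A9-inh by 0.21 ± 0.0456. COX8A fell by 0.45 ± 0.0638 in the Tr-BrM controls of H1650. COX5A rose under S100A9-inh against the Tr-BrM controls of both lines, by 0.19 ± 0.041 in H1650 and 0.14 ± 0.05 in PC9, the latter lost without S100A9-inh replicate 1 (adjusted p = 0.0994). COX6A1 fell by 0.45 ± 0.159 and then rose by 0.43 ± 0.16 in PC9 at 4.33 to 8.323 CPM, with overlapping groups, the first call lost in 4 and the second in 5 of the 17 alternative fits. COX7A2L, which holds complexes III and IV together in supercomplexes, rose by 0.12 ± 0.0341 in the Tr-BrM controls of H1650 and fell by 0.32 ± 0.046 in those of PC9, where it rose again under S100A9-inh by 0.28 ± 0.0461.

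In complex V, the subunits of the catalytic head did not keep step. ATP5F1A, subunit alpha (GRCh38 chromosome 18, 46080248 to 46104334, reverse strand), was at 300.6, 297.5 and 307.3 CPM in the BrM controls of H1650, 544.9, 509.7 and 531.5 in the Tr-BrM controls and 498.8, 535.4 and 513.3 under S100A9-inh. It rose by 0.81 ± 0.0328 (adjusted p = 1.13e-18). In PC9 it was at 620.3, 626.1 and 603.8, then 419.1, 418 and 418.4, then 517.1, 465.3 and 488 CPM, a fall of 0.56 ± 0.0367 (adjusted p = 3.74e-14) and a rise of 0.23 ± 0.0368. ATP5F1B, the catalytic subunit beta that alternates with alpha in the head, did not pass between the controls of H1650 (-0.03 ± 0.0307). In PC9 it fell by 0.45 ± 0.034 and rose by 0.49 ± 0.034 under S100A9-inh, from 915.1, 939 and 913.5 to 671.2, 678.8 and 681.6 and back to 1002, 929.1 and 930.4 CPM. ATP5F1C, the gamma subunit that turns inside the head (GRCh38 chromosome 10, 7788129 to 7807815, forward strand), fell in both lines' Tr-BrM controls, by 0.83 ± 0.0376 in H1650 and 0.34 ± 0.0422 in PC9. Its H1650 libraries were at 176.9, 182.6 and 178.9 CPM in the BrM controls and at 107.3, 96.14 and 99.06 in the Tr-BrM controls, so that alpha and gamma went opposite ways there. ATP5F1E, subunit epsilon, rose by 0.24 ± 0.0386 under S100A9-inh in H1650.

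Of the membrane and stalk parts, ATP5MJ, a small membrane proteolipid, rose by 0.77 ± 0.0762 in the Tr-BrM controls of PC9, from 28.29, 26.29 and 29.77 to 44.06, 48.75 and 50.78 CPM. It fell by 0.38 ± 0.0742 under S100A9-inh. In H1650 it fell by 0.16 ± 0.0502 in the Tr-BrM controls, a call lost without Tr-BrM control replicate 2 (adjusted p = 0.0809). ATP5PD, of the peripheral stalk, fell by 0.23 ± 0.048 under S100A9-inh in H1650 and rose by 0.32 ± 0.0635 in the Tr-BrM controls of PC9. ATP5IF1, the inhibitor that binds the head when the proton gradient collapses, fell in both lines' Tr-BrM controls, by 0.26 ± 0.0458 in H1650 and 0.12 ± 0.0535 in PC9, where the groups overlapped, and did not pass between S100A9-inh and Tr-BrM control in either line.

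Several subunits come in paired forms, and their levels are compared per kilobase of a principal transcript of each gene. The cells used the common form in each pair. COX4I1 was at 327 ± 7.79 CPM per kilobase in the BrM controls of H1650 and 266 ± 11.3 in those of PC9 (SD, n = 3), and COX4I2, the oxygen-responsive form, had 0 to 2 counts per group. COX6A2 and COX8C, forms of muscle and testis, had 0 counts in all 18 libraries. COX7A2 was at 176 ± 5.48, 146 ± 6.18 and 154 ± 5.49 CPM per kilobase in the BrM, Tr-BrM control and S100A9-inh groups of H1650, and COX7A1, the form of heart and skeletal muscle, at 0.256 ± 0.0351, 1.32 ± 0.0791 and 1.01 ± 0.175. COX7A1 rose in the Tr-BrM controls of H1650 by 2.31 ± 0.401, on 12 counts in the BrM controls and 67 in the Tr-BrM controls. COX6B1 stood at 533 ± 11.2 and COX6B2 at 0.104 ± 0.0663 CPM per kilobase in the BrM controls of H1650.

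NDUFA4 was first assigned to complex I and is now known as a subunit of complex IV, and NDUFA4L2 is its hypoxia-induced relative. Both were counted in complex I in the counts by complex given above. In H1650 NDUFA4 was flat, at 231 ± 2.45, 232 ± 14.7 and 233 ± 3.8 CPM over the 3 groups (SD, n = 3). NDUFA4L2 rose there by 1.58 ± 0.175, from 2.529, 1.774 and 1.42 to 5.252, 6.768 and 5.296 CPM. In PC9 NDUFA4 rose by 0.75 ± 0.0491, from 59.73, 58.31 and 64.04 to 100, 103.7 and 103.1 CPM, and again under S100A9-inh by 0.15 ± 0.047, while NDUFA4L2 did not pass the filter, with 14, 7 and 32 counts per group. The 3 genes of the c-ring, ATP5MC1 to ATP5MC3, encode the same mature protein. ATP5MC1 rose by 0.66 ± 0.0536 and fell by 0.44 ± 0.053 in PC9, from 49.43, 47.47 and 52.9 to 80.72, 75.45 and 81.05 and then to 57.1, 57.96 and 59.57 CPM. ATP5MC2 did the opposite there, with a fall of 0.24 ± 0.0505 and a rise of 0.34 ± 0.0503, and ATP5MC3 rose in both steps, by 0.15 ± 0.0387 and 0.14 ± 0.0386. Per kilobase the order in the BrM controls of H1650 was ATP5MC1 at 209 ± 4.53, ATP5MC2 at 74.1 ± 3.02 and ATP5MC3 at 42.9 ± 0.512 CPM (SD, n = 3). The transcripts used for this were 614, 1950 and 5484 bases long, while the exons of the genes cover 2615, 3991 and 6780 bases. The size of these gaps therefore depends on the length used.

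Not every row gave a usable level. The 7 members tested in neither line were NDUFC2-KCTD14, COX4I2, COX6A2, COX7B2, COX8C, ATP5MF-PTCD1 and ATP5MGL, and NDUFA4L2, NDUFA7 and COX7A1 were not tested in PC9. Subunits that every assembled complex needs were among those counted low: NDUFV2 had 59, 26 and 35 counts in the 3 groups of H1650, NDUFS7 was at 1.38 ± 0.122 to 2.37 ± 0.181 CPM there, and ATP5ME was under 1.4 CPM in each PC9 library. Of the 15 nuclear members under a mean of 10 CPM in H1650, 9 shared exon bases with another gene on the same strand, against 16 of the 68 at 10 CPM or more. In PC9 these were 11 of 18 and 13 of 62. Of the 90 nuclear members 50 have at least 1 annotated pseudogene of their own name, up to 17. How the counting split reads among overlapping genes and near-identical copies is not stated. The identifier version of 32 members differs between the tables, so levels are compared within a line.

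The lines were compared gene by gene by the interaction of line and group in 1 edgeR model of all 18 libraries. Between Tr-BrM control and BrM control 51 of 83 nuclear and 8 of 13 mitochondrial members had a called difference between the lines, where 54.6% of all 19076 genes did. Between S100A9-inh and Tr-BrM control these were 38 and 11, where 40.4% of all genes did, and between S100A9-inh and BrM control 48 and 12, where 50.2% did. The 83 include NDUFA4L2, NDUFA7 and COX7A1, which did not pass the filter of PC9 alone. NDUFA4L2 (-2.48, PC9 minus H1650, log2) and COX7A1 (-2.30) had called differences between the controls, with PC9 levels near the floor. Of the 80 nuclear members tested in both lines, 22 (27.5%) were called in opposite directions between the controls, 8 of them higher in H1650 and 14 higher in PC9, against 23.4% of the 14888 genes tested in both. The share among members was near that of all genes. In both lines 4 (5.0%) rose, against 9.09% of all genes, and 8 (10%) fell in both, against 11.3%. Under S100A9-inh against Tr-BrM control 3 (3.75%) were opposite, against 13% of all genes, and 7 (8.75%) rose in both lines, against 4.42%. ATP5F1A had the largest opposite difference of members above 5 CPM, -1.37 (PC9 minus H1650, log2), followed by UQCRQ at 0.99, ATP5MJ at 0.93, NDUFA1 at 0.88 and MT-ND1 at -0.83.

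**Figure D4:**
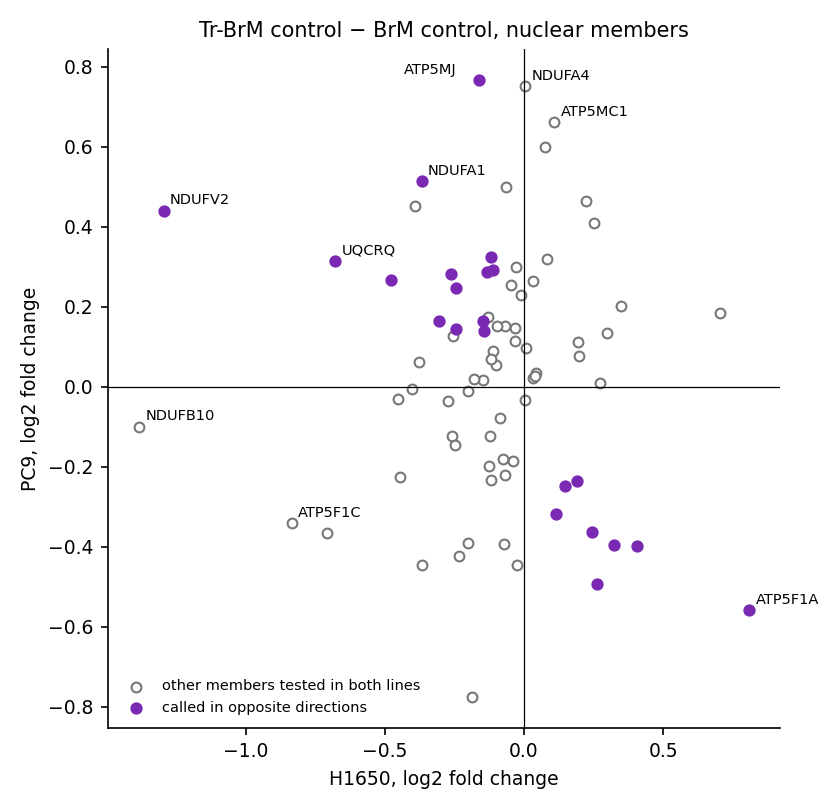
Log2 fold change of Tr-BrM control against BrM control in PC9 (y axis) and in H1650 (x axis) for the 80 nuclear members tested in both lines; filled points are the 22 called in opposite directions. ATP5F1A lies at 0.81 in H1650 and -0.56 in PC9, and UQCRQ at -0.68 and 0.32.

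Genes that build or feed the chain were taken from lists of known factors. Of all tested genes 32.2% rose and 31.7% fell between the controls of H1650, and 29.6% and 30.3% in PC9. Between S100A9-inh and Tr-BrM control these shares were 15.4% and 13.8% in H1650 and 26.3% and 26.1% in PC9. The mitochondrial ribosome, which translates the 13 mRNAs, leaned opposite ways in the lines: in the Tr-BrM controls 6 of 77 tested genes rose and 51 fell in H1650 (median -0.188), and 39 rose and 6 fell in PC9 (median 0.156). Its summed level was 4790 to 4830 CPM in the BrM controls and 3960 to 4120 in the Tr-BrM controls of H1650, and 3880 to 3920 and 4370 to 4380 in PC9. MRPL28 fell by 1.32 ± 0.0466 in H1650, and MRPL40 rose by 1.23 ± 0.0757 in PC9. Under S100A9-inh against the Tr-BrM controls 9 rose and 4 fell in H1650, and 11 rose and 24 fell in PC9 (median -0.0667). Complex I assembly factors had the same lean, with 0 that rose and 9 that fell of 18 in H1650 and 10 and 2 in PC9, and then 1 and 0 in H1650 and 2 and 9 in PC9 under S100A9-inh. NDUFAF8 rose by 0.97 ± 0.0544 and then fell by 0.44 ± 0.0527 in PC9. Of the assembly factors of complex IV 3 rose and 12 fell of 24 in H1650 and 7 rose and 3 fell of 22 in PC9. For complex II (4 genes), III (6 genes) and V (4 tested genes) rises and falls were 0 and 1, 1 and 4, and 1 and 2 in H1650, and 1 and 0, 4 and 2, and 1 and 0 in PC9. ATPAF1, an assembly factor of the ATP synthase head, rose in both lines, by 0.70 ± 0.0581 in H1650 and 0.52 ± 0.0512 in PC9.

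Enzymes that cut, edit, stabilise or degrade mitochondrial RNA leaned lower under S100A9-inh in PC9, where 2 of 22 rose and 12 fell (median -0.214), against 26.3% and 26.1% of all tested genes. FASTKD5, which acts in processing of mRNA ends, fell by 0.70 ± 0.0561, PNPT1, an exonuclease, by 0.72 ± 0.0616, and TBRG4 by 0.45 ± 0.0416. In H1650 5 rose and 2 fell in that comparison, where 15.4% of all tested genes rose and 13.8% fell. Between the controls of H1650 MTPAP, the mitochondrial poly-A polymerase, rose by 1.04 ± 0.0452, from 45.3 to 93.1 CPM, where 6 of 22 genes rose and 7 fell, and in PC9 7 rose and 6 fell. Of all tested genes 32.2% rose and 31.7% fell between the controls of H1650, and 29.6% and 30.3% in PC9. Of 16 genes that copy and transcribe mitochondrial DNA, 3 rose and 3 fell in the Tr-BrM controls of H1650 and 8 rose and 3 fell in PC9, and under S100A9-inh 0 passed in H1650 while 4 rose and 6 fell in PC9. TFAM, which packages mitochondrial DNA and starts its transcription, fell by 0.45 ± 0.0517 in the Tr-BrM controls of H1650. TWNK, the replicative helicase, rose in both lines' Tr-BrM controls, by 0.37 ± 0.0505 and 0.35 ± 0.0565, and fell by 0.50 ± 0.0572 under S100A9-inh in PC9, where MGME1, a nuclease of replication, fell by 0.86 ± 0.0657.

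Cytochrome c, CYCS, the carrier between complexes III and IV, fell by 0.48 ± 0.0281 in the Tr-BrM controls of H1650, from 672 to 483 CPM, and rose by 0.94 ± 0.0522 in those of PC9, from 105 to 201 CPM. SQOR, which feeds electrons from sulfide into coenzyme Q, fell by 2.33 ± 0.0949 in H1650, in a list of 9 carriers and feeders in which 3 rose and 5 fell in H1650 and 4 rose and 3 fell in PC9. Of 13 genes of coenzyme Q synthesis 4 rose and 6 fell in H1650, where COQ9 fell by 0.67 ± 0.0441, and 3 rose and 5 fell in PC9. The shares of all tested genes that rose and fell between the controls were 32.2% and 31.7% in H1650 and 29.6% and 30.3% in PC9. Between S100A9-inh and Tr-BrM control they were 15.4% and 13.8% in H1650 and 26.3% and 26.1% in PC9. Of 27 genes of pyruvate dehydrogenase and the TCA cycle 5 rose and 15 fell in the Tr-BrM controls of H1650 and 8 rose and 13 fell in PC9, and under S100A9-inh 3 rose and 3 fell in H1650 and 14 rose and 6 fell in PC9. CS, citrate synthase, fell by 0.64 ± 0.0398 in the Tr-BrM controls of PC9 and rose by 0.62 ± 0.0398 under S100A9-inh, and PC, pyruvate carboxylase, fell by 2.04 ± 0.0581 in H1650. Among 23 tested regulators of respiratory genes 10 rose and 7 fell in the Tr-BrM controls of H1650 and 10 rose and 10 fell in PC9, and under S100A9-inh 3 and 5 in H1650 and 9 and 6 in PC9. MYC rose by 0.98 ± 0.0408 and PPARGC1B, a coactivator of mitochondrial genes, by 1.15 ± 0.0898 in the Tr-BrM controls of PC9, and EPAS1, a hypoxia-inducible factor, fell in those of both lines, by 1.17 ± 0.0313 in H1650 and 0.58 ± 0.0336 in PC9.

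Some of the largest changes of nuclear members were set beside those of the tested genes around them, within 1 Mb on either side, a window chosen after the values were seen. NDUFB10 in H1650 had 75 such neighbours with a median of -0.91 between Tr-BrM control and BrM control, and 88.0% of them lay below 0, against -0.0209 for its 79 neighbours in PC9, where NDUFB10 itself did not pass. UQCRQ in H1650 had 19 with a median of -0.641, COX4I1 12 with -0.479 and ATP5F1C 6 with -0.659. ATP5F1A had 10 with a median of 0.371 in H1650 and 8 with -0.629 in PC9, in both lines on the side of its own change between the controls. Other called changes had neighbours near 0 or on the other side. SDHC and COX8A, which fell in H1650, had 35 neighbours with a median of 0.139 and 43 with 0.173. In the Tr-BrM controls of PC9 ATP5MC1 rose beside 34 neighbours with a median of -0.123, and NDUFA11 fell beside 38 with -0.0421. ATP5F1A under S100A9-inh rose in PC9 beside 8 with -0.204. In PC9 the 61 neighbours of ATP5F1B had a median of -0.627 between the controls and 0.548 under S100A9-inh, and the 45 of ATP5MC2 -0.653 and 0.512. NDUFA1 had 21 with medians of 0.478 and -0.332. Over members with at least 5 neighbours, the correlation between a member's change and its neighbours' median was 0.398 in H1650 (Pearson's r, 81 members, Spearman's rho 0.311) and 0.505 in PC9 (76 members, rho 0.442) between the controls, and 0.158 and 0.446 under S100A9-inh. These are descriptions across genes, which are not independent, since members that lie close together share neighbours and all points of a comparison share its libraries. DNA copy number was not measured here, and its part in these values was not tested.

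**Figure D5:**
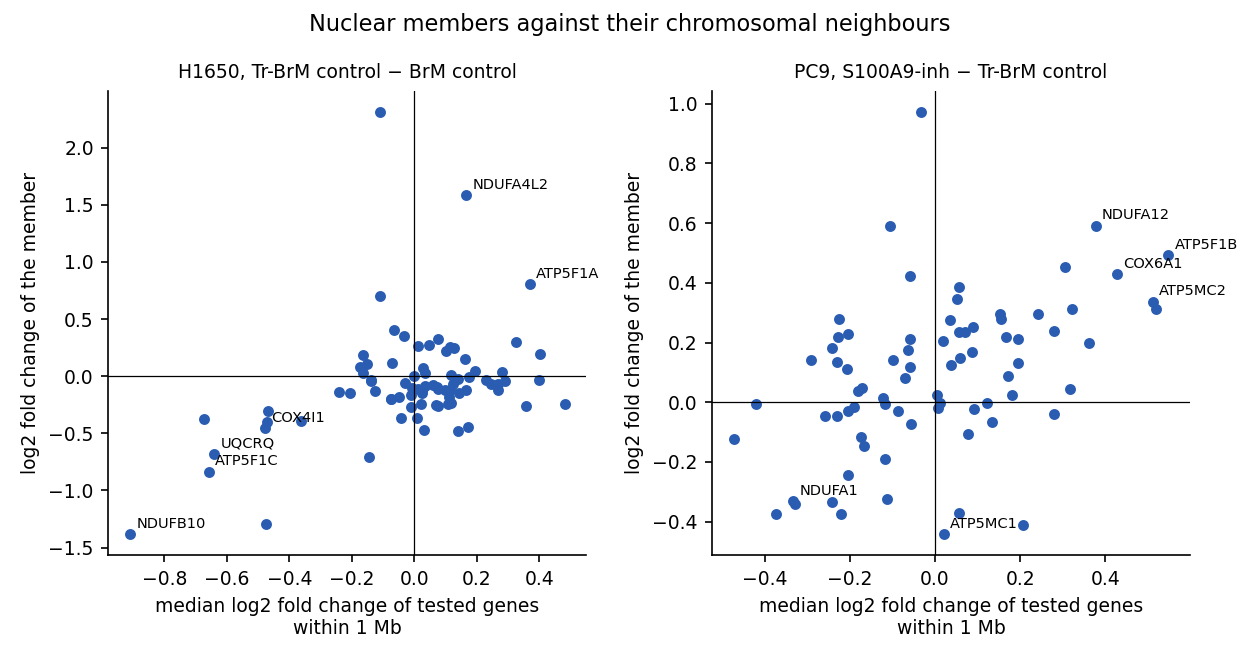
Log2 fold change of each nuclear member (y axis) against the median log2 fold change of tested genes within 1 Mb (x axis), for Tr-BrM control against BrM control in H1650 (left) and S100A9-inh against Tr-BrM control in PC9 (right), members with at least 5 neighbours. NDUFB10 lies at -1.38 with a neighbour median of -0.91, and ATP5F1B at 0.49 with a neighbour median of 0.548.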

How the data were processed

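The authors deposited a gene-by-library table of raw counts for either line, each of 9 libraries. Per the labels' protocols the RNA was poly-A selected. Per the submitters' processing notes STAR, GRCh38, DESeq2 1.28.1 and R 4.0.1 were used upstream; the sources used here do not give the counting tool, its use of strand or the annotation release. Members were found by Ensembl identifier with symbols and exons of GENCODE 29. The members, gene lists and comparisons were chosen with earlier results of these data known.

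The quasi-likelihood test of edgeR 4.0.16 (R 4.3.3) was run on all 9 libraries of a line after filterByExpr and TMM scaling, with p adjusted by Benjamini-Hochberg across the tested genes (threshold 0.05). Variation between libraries was low (biological coefficient 0.0335 for H1650, 0.0433 for PC9), so that small changes pass. Shares and ratios per library were compared by exact permutation. The script was tested on simulated counts. Members named with values were every mitochondrial mRNA, per complex and comparison the largest called rise and fall at 5 CPM or more, and those with a log2 change of 1 or more. Isoform pairs, ATP5IF1, COX7A2L and up to 6 members called in opposite directions per comparison were named too. List genes were taken from the 3 with the smallest p per list, line and comparison, and not all of these are given. NDUFS1, NDUFS4, NDUFS7, NDUFV2, UQCRC2, ATP5ME, MT-RNR1, MT-RNR2 and PPARGC1A were named after their values were seen. Marker lists covered epithelium, leukocytes, fibroblasts and endothelium, and astrocytes and neurons. Alternatives were other scalings, filters, DESeq2 1.42.0, a log2 minimum, fewer libraries and leaving out each replicate.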

Additional observations from a re-analysis of the deposited data

Results flagged for a closer look

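The change between groups differed between the lines, by the interaction of line and group in edgeR's quasi-likelihood test over all 18 libraries, for 51 of 83 nuclear and 8 of 13 mitochondrial members between Tr-BrM control and BrM control, for 38 and 11 between S100A9-inh and Tr-BrM control, and for 48 and 12 between S100A9-inh and BrM control. The nuclear shares, 61.4, 45.8 and 57.8%, lie near the 54.6, 40.4 and 50.2% of all tested genes, and the mitochondrial shares were 61.5, 84.6 and 92.3%. These 3 comparisons share libraries. The 83 nuclear members include NDUFA4L2, NDUFA7 and COX7A1, which did not pass the filter of PC9 alone.

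Members called in opposite directions in the lines and with a called interaction are given as PC9 minus H1650 on the log2 scale. Between Tr-BrM control and BrM control the difference was 1.74 for NDUFV2, which rests on few counts, -1.37 for ATP5F1A, 0.99 for UQCRQ, 0.93 for ATP5MJ, 0.88 for NDUFA1 and -0.83 for MT-ND1. Between S100A9-inh and Tr-BrM control it was -0.75 for MT-ND4L, whose H1650 replicate 2 lay apart, 0.73 for NDUFA12, -0.61 for MT-CO3, -0.50 for NDUFA1, 0.46 for ATP5MC2 and -0.25 for MT-ND1. Between S100A9-inh and BrM control it was 1.94 for ATP5ME, which is counted under 1.4 CPM in PC9, 1.28 for UQCRQ, -1.10 for ATP5F1A, -1.09 for MT-ND1, -0.83 for MT-ND3 and -0.76 for MT-ND2. Some of the calls within a line were lost in part of the 17 alternative fits. For S100A9-inh against Tr-BrM control these were MT-ND1 (6 fits) and MT-ND4L (4) in PC9, and MT-CO3 (4) and NDUFA12 (1) in H1650. For the controls it was ATP5MJ in H1650 (2).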

How the results depend on the processing

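No called member reversed its direction with a call in any of 17 alternative fits per comparison; of the called members of H1650, 39 of 66 passed in every fit between the controls, 14 of 26 between S100A9-inh and Tr-BrM control and 45 of 62 between S100A9-inh and BrM control, and in PC9 46 of 59, 37 of 51 and 34 of 52. No paired analysis was possible because the labels give running library numbers and no replicate number shared between groups.

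Requiring a log2 change of at least 0.5 left, of nuclear members that rose and fell, 3 and 5 (controls), 0 and 1 (S100A9-inh against Tr-BrM control) and 3 and 7 (S100A9-inh against BrM control) in H1650 and 5 and 2, 2 and 0, and 5 and 1 in PC9. Of mitochondrial members it left 1 and 0, 1 and 0, and 2 and 0 in H1650, and 2 and 0 (controls), 4 that fell and 1 that fell in PC9. Of all 17937 tested genes of H1650 it left 3578 and 2910, 703 and 581, and 3562 and 2824 in the same order. Of the 16169 of PC9 it left 2308 and 2635, 1995 and 1581, and 1555 and 1380. Scaling by library size alone gave 21 nuclear members that fell in H1650 between the controls, 21 that fell between S100A9-inh and Tr-BrM control and 24 that rose between S100A9-inh and BrM control, and 1 mitochondrial member that fell between the controls. The split of all genes went with it, from 5777 that rose and 5692 that fell between the controls of H1650 to 6802 and 4672, and from 2762 and 2468 to 2201 and 3193 between S100A9-inh and Tr-BrM control. DESeq2 gave 2 mitochondrial members that fell in H1650 between S100A9-inh and Tr-BrM control. Without MT-CO1 the log2 ratio of mitochondrial to nuclear counts in PC9 differed by -0.498 between S100A9-inh and Tr-BrM control and by -0.341 between S100A9-inh and BrM control. Restricting to members at 10 CPM or more, chosen after seeing the data, left 3 nuclear members that fell in PC9 between S100A9-inh and BrM control.

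Leaving out 1 replicate in turn gave 23 to 40 nuclear members that fell between the controls of H1650, the lowest without Tr-BrM control replicate 2. Between S100A9-inh and Tr-BrM control of H1650 it gave 6 to 15 nuclear members that rose (6 and 7 without Tr-BrM control replicates 2 and 3), 5 to 15 that fell (5 and 15 without S100A9-inh replicates 1 and 2) and 2 to 5 mitochondrial members that rose (5 without S100A9-inh replicate 2). The cause of these shifts was not tested. Members under 10 CPM rest on few reads, and their errors are wide at this depth.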

Other observations

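The ribosomal RNAs of the mitochondrion, MT-RNR1 and MT-RNR2, are read from the same genome as the 13 mRNAs but are not poly-A mRNAs of the usual kind, and their share in poly-A selected libraries need not follow their amount. It went from 0.565% ± 0.00903 in the BrM controls to 0.786% ± 0.0311 in the Tr-BrM controls and 0.863% ± 0.0556 under S100A9-inh in H1650. In PC9 it went from 0.733% ± 0.0129 to 0.334% ± 0.0118 and 0.389% ± 0.0709 (SD, n = 3). In PC9 rRNA and mRNA shares of the Tr-BrM controls thus lay on opposite sides of the BrM controls, with no overlap in either (exact permutation p = 0.1, the smallest that 3 against 3 allow), and in H1650 both were higher.

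PPARGC1A, a coactivator of mitochondrial biogenesis, was at 0.0151 CPM in the BrM controls of H1650, 2.47 CPM in the Tr-BrM controls and 3.2 CPM under S100A9-inh. The BrM control level lies at the floor, so the size of this difference is uncertain. It was picked from the regulators of respiratory genes, of which 10 rose and 7 fell among 23 tested between these controls.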
